A study of Mus musculus with 18 samples.

Results

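The calponin and transgelin family was followed through healing of the wire-injured mouse carotid artery. Its members were taken by symbol as 5 genes, Tagln, Cnn1, Tagln2, Cnn2 and Cnn3, out of 35655 rows of the count table, and all 5 passed the filter on low counts. Tagln3, a transgelin of nervous tissue outside this set, had 0 to 4 counts per library and was not tested. Libraries of 3′ transcript ends, made by MACE (massive analysis of cDNA ends), came from laser-dissected carotid sections. The methods describe sections with the outer elastic lamina and the neointima, the tissue that forms inside an injured artery. All mice were wild type (WT) C57/BL6, and the methods give male mice aged 11 weeks at injury. The groups were day 0, labelled as pre-injury (4 libraries), and days 7 (4), 14 (3), 21 (4) and 28 (3) after wire injury. By the definition above a vessel before injury has no neointima, and the sources do not say what was dissected on day 0. A difference in the tissue taken therefore cannot be told apart from a change in expression in any comparison with day 0. A figure legend of the study calls the samples pooled, and 3 mouse numbers occur at both day 0 and day 21, and the sources do not say if a day 0 vessel was the right, control artery of a mouse injured on the left. With no other statement on separate animals, p-values measure the spread between these libraries.

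Calponins and transgelins bind along actin filaments through a calponin-homology domain or short calponin repeats. Cnn1 (calponin 1) and Tagln (transgelin, also called SM22) are made mainly by differentiated smooth muscle, where calponin 1 slows the myosin motor and both serve as markers of the contractile state. Their relatives Tagln2, Cnn2 and Cnn3 are made by many cell types, among them leukocytes, endothelial cells and fibroblasts, in which they bind and stabilise the actin cytoskeleton. Genes of contractile smooth muscle are commonly driven by serum response factor (SRF) with its cofactors at a short A/T-rich element called the CArG box. Below, the muscle members are set against their widely expressed relatives.

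The paralogs differ in the sequence before their start sites, and windows of 250 bases ending at the start are shown for Cnn1, the muscle calponin, and Cnn2, a widely expressed one. They are RefSeq sequences of build GRCm38.p6, and 4 of the 5 members had an entry in the table, Tagln having none. Capitals mark CpG dinucleotides.
Cnn1, chr9:22099003-22099252, plus strand: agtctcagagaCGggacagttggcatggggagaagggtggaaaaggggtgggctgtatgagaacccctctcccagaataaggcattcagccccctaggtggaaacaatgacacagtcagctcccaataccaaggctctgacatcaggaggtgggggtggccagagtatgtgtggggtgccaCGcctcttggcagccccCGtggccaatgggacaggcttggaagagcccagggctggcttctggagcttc
Cnn2, chr10:79988350-79988599, plus strand: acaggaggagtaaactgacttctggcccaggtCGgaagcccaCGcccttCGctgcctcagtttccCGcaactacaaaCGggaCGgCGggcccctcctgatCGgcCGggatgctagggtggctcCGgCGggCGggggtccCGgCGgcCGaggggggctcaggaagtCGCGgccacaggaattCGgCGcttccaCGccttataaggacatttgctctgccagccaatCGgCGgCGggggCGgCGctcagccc
The Cnn1 window holds 3 CpG dinucleotides against 25 in that of Cnn2, 14 in that of Tagln2 and 28 in that of Cnn3, with a median of 6 over all 32851 windows. A CArG box, searched as the pair CC, a run of A or T, and the pair GG, which reads the same on both strands, occurred in 482 of these windows (1.47%). Among the 4 members only the Cnn2 window held it, at -56 to -47 from the start, in the 40 bases below with the box in capitals.
Cnn2, CArG box: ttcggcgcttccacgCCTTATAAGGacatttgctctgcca
No match in a window says only that these letters are not in it, and no measurement here bears on binding at this box.

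In the GENCODE M39 annotation of GRCm39, Tagln lies at chr9:45840909-45847404 on the minus strand, Cnn1 at chr9:22010512-22020926 on the plus strand, Tagln2 at chr1:172327426-172334947 (plus), Cnn2 at chr10:79824410-79831896 (plus) and Cnn3 at chr3:121220146-121251856 (plus). No stretch of 31 bases was shared between any 2 members, so that an exact match of that length belongs to 1 member. Exons of Tagln overlap those of Pcsk7 and Gm48529, those of Cnn1 overlap Elof1, and those of Cnn3 overlap Gm42928, each on the other strand. The use of strand in the counting is not given in the sources used here, and without strand reads of such pairs cannot be told apart. Elof1 had 15 to 76 counts and Pcsk7 1 to 24 per library, and 2 genes sharing sequence with Cnn3, Gm4815 and Gm17936, had 0 in all libraries. Gm48529, which has the longest overlap with Tagln, and Gm42928 had no row of that name in the count table, so their counts cannot be given.

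Libraries held 440675 to 878310 counts (median 659166). Tested in edgeR's quasi-likelihood fit over all 18 libraries with Benjamini-Hochberg adjustment over 10312 genes, 3 of the 5 members fell on day 7 against day 0, where 8.53% of all genes tested were lower. The same fit gave 0 lower members on day 14 (1.42% of all genes), 1 on day 21 (2.93%) and 0 on day 28 (0.369%), and no member was called higher than day 0 on days 7, 14, 21 or 28, when 11.3%, 4.8%, 5.92% and 0.97% of all genes were. At an unadjusted p under 0.05, 2 members passed on day 14, 3 on day 21 and 0 on day 28, beside 1770, 2263 and 1521 of all 10312 genes. DESeq2 called 0 members on days 14, 21 and 28, beside 844, 1236 and 331 of all genes. All comparisons with day 0 share the same 4 control libraries.

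Tagln, which encodes the muscle transgelin, showed the family's highest counts before injury, at 0.930% to 1.14% of each library. Its level in CPM (counts in a library scaled to 1000000) was 11661, 9676, 11648 and 10148 on day 0. On day 7 it was 1159, 417, 562 and 2950 CPM, on day 14 7553, 2026 and 2675, on day 21 2964, 2272, 6136 and 3958, and on day 28 9998, 8226 and 7516. The day 7, 14 and 21 libraries all lay below every day 0 library, and those of day 28 overlapped with day 0 through replicate 1. Tagln fell by 3.08 on the log2 scale on day 7 (SE 0.47, edgeR adjusted p = 3.5e-05, 4 of 4 libraries lower), a level 8.47-fold lower. Day 7 replicate 4 was the highest of its group, and without it the log2 fold change was -3.93. Fewer smooth muscle cells in the tissue and less Tagln RNA per cell cannot be told apart in these bulk libraries.

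On day 14 the log2 fold change of Tagln against day 0 was -1.40 (SE 0.49, edgeR adjusted p = 0.0967). Replicate 1, at 7553 CPM, stood far above the others of day 14, and without it the log2 fold change was -2.19 (adjusted p = 0.00975). Leaving out day 7 replicate 4, a library of neither day, also brought the day 14 difference past the threshold (adjusted p = 0.0221). On day 21 Tagln was called lower, by 1.49 on the log2 scale (SE 0.44, edgeR adjusted p = 0.0340, 4 of 4 libraries). That call was lost in DESeq2 (adjusted p = 0.0776), without any 1 of the day 0 libraries (0.0549 to 0.0738) and when day 21 replicate 1, 2 or 4 was dropped (0.105, 0.105 and 0.0710), and across the 25 alternatives it ran from 4.5e-09 to 0.105. By day 28 the log2 fold change was -0.33 (95% confidence interval -1.30 to 0.64), so a difference from day 0 was not detected there.

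Cnn1, which encodes the smooth muscle calponin, followed nearly the same course. Its level was 2397, 2073, 2058 and 2180 CPM on day 0 and 217, 55.7, 87.7 and 308 on day 7, the latter from 122, 31, 44 and 191 counts. It was 1518, 450 and 411 CPM on day 14, 673, 597, 1352 and 973 on day 21, and 1666, 918 and 1275 on day 28. Every injured library, day 28 included, lay below every day 0 library, and the day 0 libraries differed among themselves by only 7.18% (coefficient of variation). Cnn1 fell by 3.69 on the log2 scale on day 7 (SE 0.45, edgeR adjusted p = 2.4e-06, 4 of 4 libraries lower), a level 13.0-fold lower.

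On day 14 the log2 fold change of Cnn1 was -1.46 (SE 0.45, edgeR adjusted p = 0.0553) and on day 21 -1.28 (SE 0.41, adjusted p = 0.0509), both just outside the threshold. Without day 14 replicate 1, the high library of that day, the day 14 value was -2.33 (adjusted p = 0.00250). Leaving out day 7 replicate 2, 3 or 4 (0.0285, 0.0402 and 0.0290) or day 21 replicate 2 or 3 (0.0497 and 0.0493) also brought the day 14 difference under the threshold. For day 21 the same held without day 7 replicate 2, 3 or 4 (0.0277, 0.0377 and 0.0283), day 14 replicate 1, 2 or 3 (0.0202, 0.0401 and 0.0430), day 21 replicate 3 (0.0330) or day 28 replicate 1 (0.0482). Across the 25 alternatives the adjusted p ran from 8.8e-06 to 0.308 on day 14 and from 1.6e-05 to 0.150 on day 21. On day 28 the log2 fold change was -0.76 (95% confidence interval -1.67 to 0.15, adjusted p = 0.439). Libraries that all lay below day 0 were seen for 3 members on day 7 (9.71% of all genes), 2 on day 14 (6.79%), 2 on day 21 (6.81%) and 1, Cnn1, on day 28 (5.07%).

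**Figure D1:**
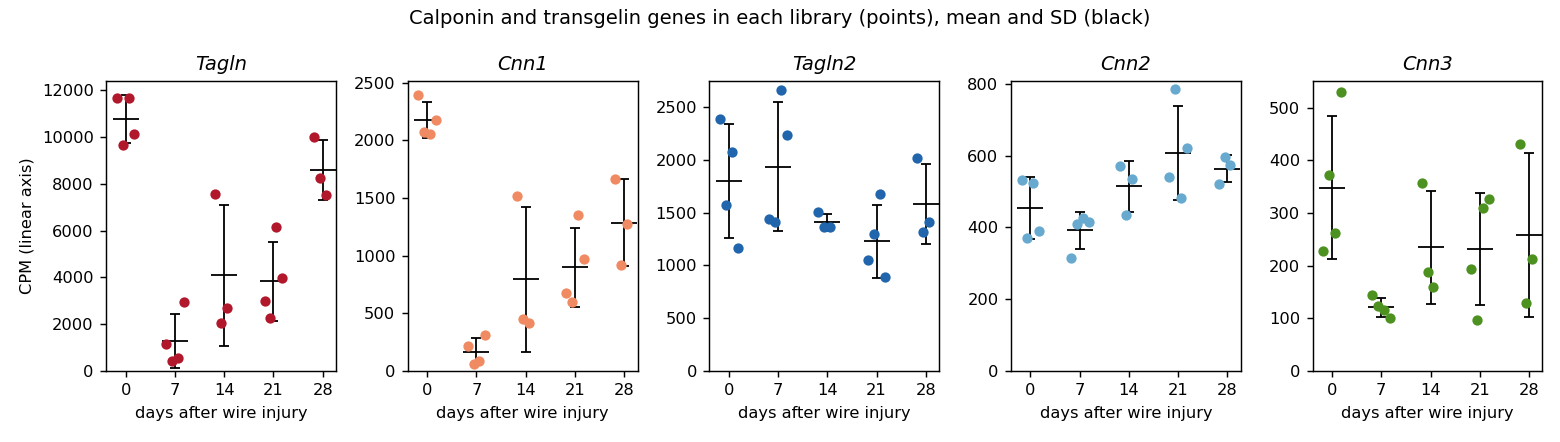
CPM (linear axis from 0) of each member by days after wire injury, with 1 point per library and the mean and SD in black. Tagln and Cnn1 drop to means of 1272 and 167 CPM on day 7 and climb towards day 28, while Tagln2 overlaps with its day 0 libraries on every day and the means of Cnn2 stay between 392 and 607 CPM.

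Between injured days, Cnn1 rose from day 7 to day 14 by 2.24 on the log2 scale (SE 0.45, edgeR adjusted p = 0.00983), as did 1.33% of all genes. Without day 14 replicate 1 that difference was 1.37 (SE 0.42, edgeR adjusted p = 0.228) and the call was lost. It was also lost with only the 2 days compared (adjusted p = 0.0898), and over 25 alternatives the adjusted p ran from 1.1e-13 to 0.228. Tagln differed by 1.68 (adjusted p = 0.0689), a value of 0.90 without day 14 replicate 1 and 2.52 without day 7 replicate 4 (adjusted p = 0.000670); without day 14 replicate 2 the adjusted p was 0.0301.

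Against day 7, both muscle genes were called higher on day 21 and on day 28, when 4.03% and 6.4% of all genes were. For Cnn1 the log2 differences were 2.42 on day 21 (SE 0.43, edgeR adjusted p = 0.000913) and 2.94 on day 28 (SE 0.46, adjusted p = 0.000139). Tagln was higher by 1.59 on day 21 (SE 0.45, adjusted p = 0.0270) and by 2.75 on day 28 (SE 0.48, adjusted p = 0.000411). The day 21 call of Tagln was lost in DESeq2 (adjusted p = 0.0527), with the mouse numbers as a block (0.316), and without day 7 replicate 1, 2 or 3 (0.0750, 0.0876 and 0.0902) or day 21 replicate 3 or 4 (0.114 and 0.0555). Without day 7 replicate 4, Tagln was higher by 2.44 on day 21 and by 3.59 on day 28.

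No member was called between days 14, 21 and 28 in edgeR or DESeq2, where edgeR called 0% of all genes for day 21 against 14 (421 at an unadjusted p under 0.05, 17 by DESeq2), 0.698% for day 28 against 14 and 0.679% for day 28 against 21. Tagln alone had an unadjusted p under 0.05, for day 28 against days 14 and 21, as did 1335 and 1553 of all 10312 genes. Its log2 differences there were 1.07 and 1.16 (adjusted p = 0.368 and 0.227), the first of which was 1.86 without day 14 replicate 1. In order of mean level, Tagln ran from day 0 through days 28, 14 and 21 to day 7, and Cnn1 from day 0 through days 28, 21 and 14 to day 7. Of the neighbours in each order, only the lowest step, to day 7, passed the test.

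Tagln2, the transgelin of many cell types, did not share this fall. Its level was 2387, 1573, 2076 and 1161 CPM on day 0 and 1442, 1412, 2661 and 2238 on day 7. It was 1504, 1361 and 1367 CPM on day 14, 1055, 1296, 1682 and 887 on day 21, and 2021, 1318 and 1408 on day 28. Groups overlapped with day 0 on every day, and the day 0 libraries alone spanned a range from 1161 to 2387 CPM. The log2 fold change on day 7 was 0.11 (SE 0.25, edgeR adjusted p = 0.835), and its 95% confidence interval of -0.41 to 0.63 lay wholly above that of Tagln (-4.05 to -2.11). The sign of the Tagln2 value was not stable, turning to -0.07 when day 0 replicate 4 was dropped, -0.12 without the third library of day 7 and -0.14 with mouse numbers as a block. Its lowest mean was on day 21, with a log2 fold change against day 0 of -0.55 (SE 0.25, edgeR adjusted p = 0.201). From day 7 to day 21 the log2 difference of Tagln2 was -0.66 (SE 0.25, edgeR adjusted p = 0.128), which was not called.

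Cnn2, the calponin found in leukocytes and many non-muscle cells, was likewise not called against day 0 on any day. Its level was 533, 372, 523 and 390 CPM on day 0, 313, 410, 427 and 417 on day 7, and 571, 436 and 536 on day 14. Day 21 libraries gave 541, 785, 482 and 621 CPM and day 28 libraries 521, 595 and 575. All groups overlapped with day 0, the day 7 mean being the lowest and the day 21 mean the highest of the 5 days. The log2 fold change was -0.21 on day 7 (SE 0.21, 95% confidence interval -0.65 to 0.22) and 0.42 on day 21 (SE 0.21, edgeR adjusted p = 0.248). Between days 7 and 21 the log2 difference was 0.63 (SE 0.21, edgeR adjusted p = 0.0704), which was not called. That difference passed the threshold in DESeq2 (adjusted p = 0.0260) and when day 21 replicate 3 was dropped (0.0477), the adjusted p running from 0.0260 to 0.193 across 25 alternatives. From day 7 to day 28 the log2 difference of Cnn2 was 0.53 (SE 0.23, edgeR adjusted p = 0.125), also not called.

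Cnn3, the acidic calponin, is made in many tissues including smooth muscle, and it moved in between. Its level was 228, 372, 261 and 529 CPM on day 0 and 144, 122, 116 and 100.1 on day 7. It was 357, 187 and 159 CPM on day 14, 194, 96.9, 309 and 326 on day 21, and 431, 129 and 213 on day 28. Only the day 7 libraries all lay below every day 0 library, and on later days the libraries of 1 group differed by over 2-fold. Cnn3 fell by 1.53 on the log2 scale on day 7 (SE 0.38, edgeR adjusted p = 0.00491), a level 2.88-fold lower. Its 95% confidence interval, -2.31 to -0.74, lay outside that of Cnn1 (-4.63 to -2.76) and overlapped that of Tagln (-4.05 to -2.11). With the 3 shared mouse numbers as a block, which leaves day 0 replicate 1 as the only day 0 library outside the block, the Cnn3 value was -0.67 (adjusted p = 0.368), and the other 24 alternatives kept the call. On days 14, 21 and 28 the log2 fold changes were -0.57, -0.59 and -0.43 (adjusted p = 0.555, 0.380 and 0.661).

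**Figure D2:**
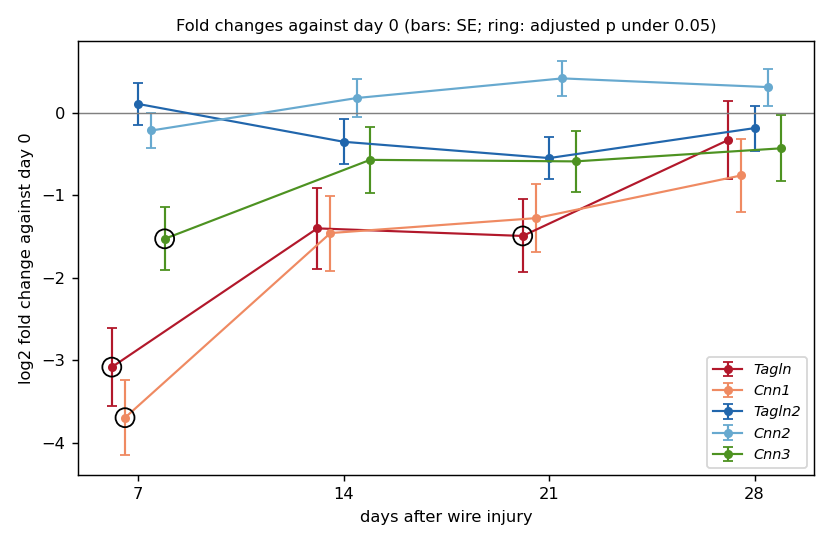
Log2 fold change of each member against day 0 (y axis) on days 7, 14, 21 and 28 after injury (x axis, points shifted sideways for legibility), with SE bars and a ring where the edgeR adjusted p was under 0.05. Tagln, Cnn1 and Cnn3 are ringed on day 7 at -3.08, -3.69 and -1.53, Tagln alone on day 21, and Tagln2 and Cnn2 stay within 0.55 of 0.

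The make-up of the family's counts shifted accordingly. Tagln and Cnn1 together held 81.7% to 85.6% of the counts of the 5 genes in day 0 libraries (mean 83.4% ± 1.63, SD, n = 4). On day 7 they held 42.0%, 19.6%, 16.9% and 54.2%, and Tagln2 alone held 52.2% ± 14.3 (SD, n = 4) against 11.4% ± 2.49 on day 0. The muscle share was 64.8% ± 12.4 (n = 3) on day 14, 68.0% ± 8.17 (n = 4) on day 21 and 80.5% ± 1.10 (n = 3) on day 28. Day 28 shares, 79.7% to 81.7%, met those of day 0 only at their lower edge. Libraries of days 7, 14 and 21 all lay below day 0.

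**Figure D3:**
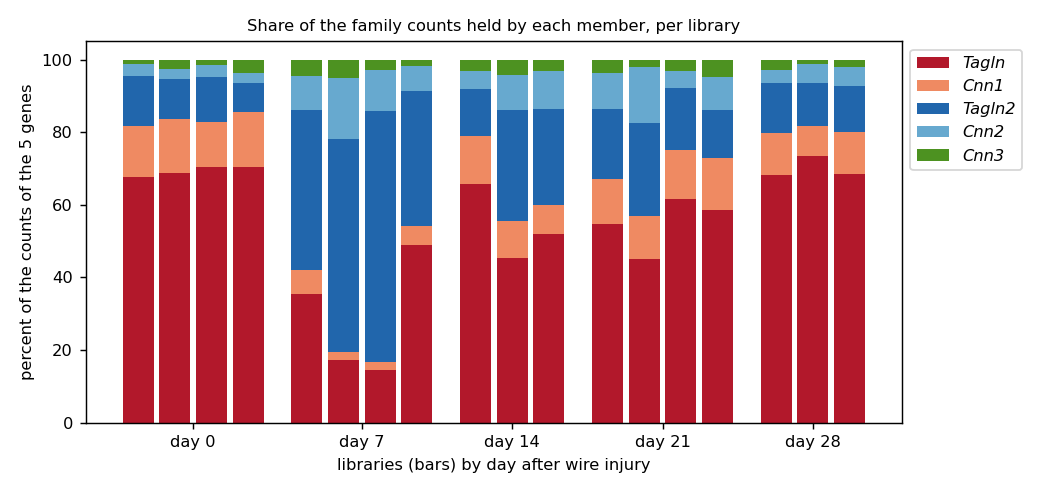
Percent of the counts of the 5 genes held by each member (stacked to 100%), with 1 bar per library grouped by day. On day 0 Tagln and Cnn1 fill 81.7% to 85.6% of each bar and on day 7 16.9% to 54.2%, where Tagln2 takes the largest part of 3 of the 4 bars.

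Ratios of members within a library do not depend on how libraries are scaled, and they test muscle against widely expressed paralogs directly. The log2 ratio of Cnn1 to Cnn2 counts (pseudocount 0.5) was 2.17, 2.48, 1.97 and 2.48 on day 0 and -0.53, -2.86, -2.27 and -0.43 on day 7. It was 1.41, 0.05 and -0.38 on day 14, 0.32, -0.39, 1.49 and 0.65 on day 21, and 1.67, 0.62 and 1.15 on day 28. All 14 injured libraries lay below all 4 day 0 libraries, with a mean difference of -2.24 (exact two-sided permutation test over libraries, p = 0.000654, the smallest this design allows, and 0.00261 adjusted over 4 ratios). The permutations treat all libraries as separate, though some mouse numbers occur at both day 0 and day 21. No ratio was tested with mouse numbers as a block. On day 28 the calponin ratio still lay below its day 0 range, by a mean of -1.13 (exact permutation p = 0.0571, the smallest for 3 against 4).

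The log2 ratio of Tagln to Tagln2 was 2.29, 2.62, 2.49 and 3.13 on day 0 and -0.32, -1.76, -2.24 and 0.40 on day 7. It was 2.33, 0.57 and 0.97 on day 14, 1.49, 0.81, 1.87 and 2.16 on day 21, and 2.31, 2.64 and 2.42 on day 28. Day 28 libraries lay inside the day 0 range, as did day 14 replicate 1. The injured libraries were lower by 1.66 on average (exact two-sided permutation test, p = 0.00915, adjusted 0.0183), with 10 of 14 below all of day 0. Dropping day 0 replicate 3 or 4 gave adjusted p of 0.0529 and 0.0549, and the 21 alternatives ran from 0.00672 to 0.0782.

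For Cnn1 to Cnn3 the injured libraries were lower by 1.23 (exact two-sided permutation test, p = 0.0203, adjusted 0.0270), with 9 of 14 below all of day 0. This was lost without day 0 replicate 1 (adjusted p = 0.114) or 3 (0.0941), in a range of 0.0168 to 0.114 over 21 alternatives. The ratio of the muscle members to each other, Tagln to Cnn1, differed by 0.19 on the log2 scale (exact permutation p = 0.390), with day 0 values of 2.22 to 2.50. It was 2.41 to 3.25 on day 7, 2.17 to 2.70 on day 14, 1.93 to 2.18 on day 21 and 2.56 to 3.16 on day 28. Thus all day 21 libraries lay below and all day 28 libraries above day 0. Taken day by day, 4 libraries against 4 cannot go below an exact p of 0.0286, and none of 16 such comparisons could pass after adjustment (smallest adjusted p = 0.0762). On day 7 the mean differences were -3.61 for Tagln to Tagln2, -3.80 for Cnn1 to Cnn2 and -2.55 for Cnn1 to Cnn3.

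**Figure D4:**
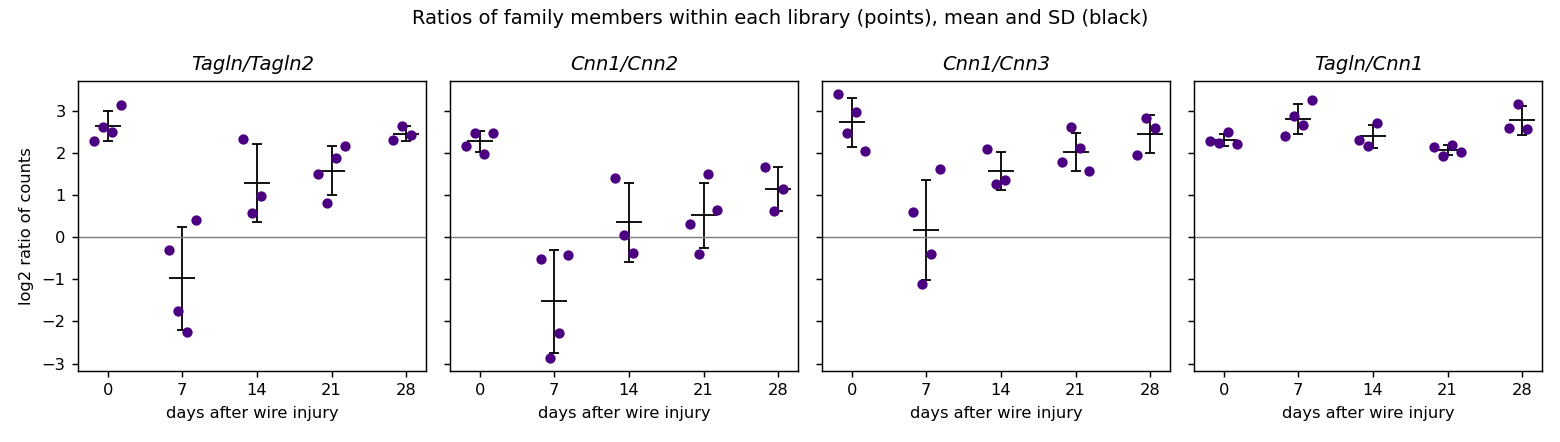
Log2 ratios of counts (y axis) for 4 pairs of members by days after wire injury (x axis), with 1 point per library and the mean and SD in black. On day 28 the Tagln/Tagln2 libraries lie inside their day 0 range and the Cnn1/Cnn2 libraries below theirs. A single day could not pass the permutation test after adjustment, and the ratios were not compared with each other. Tagln/Cnn1 stays between 1.93 and 3.25 in all libraries.

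The contractile smooth muscle list, 17 genes of which 16 were tested, holds the filament partners and motor of the muscle members. On day 7, 15 of 16 were lower and 0 higher, at a median log2 fold change of -3.16 where that of all genes tested was 0.07, beside -3.08 and -3.69 for Tagln and Cnn1. Cald1 (caldesmon, another brake on the actin-myosin motor) fell by 2.35, Mylk (the kinase that switches smooth muscle myosin on) by 3.12, Acta2 (smooth muscle actin) by 3.41 and Tpm2 (a tropomyosin) by 2.87 on the log2 scale, with edgeR adjusted p of 1.2e-07, 1.7e-07, 4.4e-07 and 4.6e-07. On day 14, 8 were lower (median -1.38), on day 21 10 (median -1.45) and on day 28 1 (median -0.49), again with 0 higher. The all-gene medians on those days were 0.05, 0.07 and -0.01.

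The 28 widely expressed actin filament genes, 27 of them tested, divided on day 7, with 9 higher, 7 lower and 11 not called (median 0.30). Tmsb10 and Capg, a monomer-binding thymosin and a capping protein, rose by 2.25 and 2.52 on the log2 scale (edgeR adjusted p = 8.7e-06 and 1.1e-05). Myl6, a light chain that smooth muscle myosin also uses, fell by 1.87, and Flna, the crosslinking filamin, fell by 2.29 (adjusted p = 7.7e-07 and 5.0e-06). The other genes lower on day 7 were Actn1, Actn4, Pls3, Vcl and Tln1, crosslinkers and adhesion linkers, with log2 fold changes of -1.44, -1.33, -1.52, -1.31 and -0.81. Cnn3, at -1.53, thus fell by an amount like theirs, and Tagln2 and Cnn2 belonged with the genes not called. Later counts were 3 higher and 3 lower on day 14, 3 and 4 on day 21, and 0 and 0 on day 28.

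Of 12 SRF cofactors and regulators, 11 were tested, and on day 7 2 were higher, 1 lower and 8 not called (median 0.20). Elk3, an SRF partner of the ternary complex type, rose by 1.79 (edgeR adjusted p = 0.000222) and Mrtfa, an actin-sensing SRF coactivator, by 0.92 (adjusted p = 0.0461). Csrp2, a LIM-domain protein that works with SRF in smooth muscle, fell by 2.91 (adjusted p = 4.2e-06), close to Tagln. Klf2, a flow-responsive factor, had a log2 fold change of 1.11 (adjusted p = 0.0501) on day 7. Srf itself was at -0.94 (SE 0.64, adjusted p = 0.360). Counts higher and lower were 1 and 1 on day 14, 2 and 1 on day 21, and 0 and 0 on day 28.

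**Figure D5:**
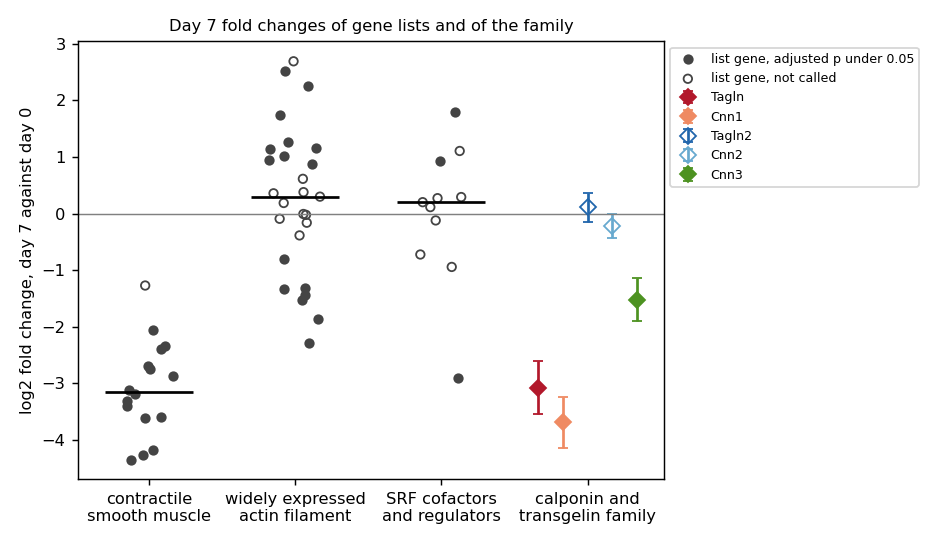
Log2 fold change on day 7 against day 0 (y axis) of the genes of 3 lists (circles, filled where the edgeR adjusted p was under 0.05, bar at the list's median) and of the family (diamonds with SE, filled where called). Tagln and Cnn1 sit among the contractile genes (median -3.16), Tagln2 and Cnn2 near the medians of the other lists (0.30 and 0.20), and Cnn3 in between.

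Markers of other cells moved on the same days. All 13 macrophage markers were higher on days 7, 14 and 21 and 5 on day 28 in edgeR, with summed levels of 122 to 537 CPM on day 0, 5540 to 7831 on day 7, 1464 to 3508 on day 14, 2180 to 3794 on day 21 and 942 to 1277 on day 28. Mpeg1 was at 0 in every day 0 library. Summed contractile levels went the other way, from 43296 to 47614 CPM on day 0 to 2979 to 9238 on day 7. The part of these cells in the fall of Tagln, Cnn1 and Cnn3, and in the level of Tagln2 and Cnn2, which leukocytes also make, was not tested.

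Of the remaining marker lists on day 7, 4 of 4 tested neutrophil genes, 4 of 5 erythroid, 1 of 1 platelet and 1 of 3 Schwann cell genes were higher. Endothelial genes gave 4 higher and 1 lower of 9, adventitial fibroblast genes 1 higher and 4 lower of 8, and skeletal muscle genes 0 of 3. No T and B cell or adipocyte gene passed the filter on low counts. Skeletal muscle markers summed to as much as 129 CPM in a library of day 7, 514, 420 and 17.6 in the highest libraries of days 14, 21 and 28, against at most 5.96 before injury.

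Over the 18 libraries, the log2 CPM of Tagln and Cnn1 correlated with r = 0.97, and with r = 0.94 after each day's mean was removed. Tagln was closest to Myh11 (smooth muscle myosin heavy chain, r = 0.99), Myl9 (0.99) and Adcy5 (0.98), and Cnn1 to Myh11 (0.99), Acta2 (0.99) and Myl9 (0.98). All of these but Adcy5 are on the contractile smooth muscle list. Cnn3 correlated with Cnn1 at r = 0.74 and was closest to Tmem38b (0.88), Vcl (vinculin, 0.88) and Filip1l (0.88). Tagln2 was near r = 0.02 with Tagln, and its closest genes were 2200002D01Rik (0.84), Hypk (0.80) and Msn (moesin, a membrane linker of actin, 0.78). Cnn2 had Chka (0.82), Bco1 (0.80) and Dzip1l (0.80). These correlations are descriptions over libraries that share their days, scaling and depth.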

How the data were processed

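MACE libraries of 3′ transcript ends were made from laser-dissected carotid sections of 18 samples. The authors removed PCR duplicates by molecular barcodes, cropped low-quality reads and used Salmon 1.9.0 with the mm39 transcriptome. They deposited whole-number estimated counts, and a normalised signal made with DESeq2 1.36.0. The latter was used only for a check of values and as an alternative input for the ratios of members. The annotation release and the use of strand are not given in the sources used here.

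Estimated counts were analysed in R 4.3.3 with edgeR 4.0.16: filterByExpr by day, TMM normalization, 1 quasi-likelihood fit over 18 libraries with the day as its term, and adjustment by Benjamini and Hochberg (10312 genes, threshold 0.05). CPM are counts over the TMM-scaled total of the genes tested, times 1000000. Each SE is the log2 fold change divided by the root of its F statistic. Log2 ratios of members (pseudocount 0.5) were compared by exact permutation tests in scipy 1.17.1. Lists were contractile smooth muscle, SRF cofactors and regulators, widely expressed actin filament genes, and markers of macrophages, neutrophils, T and B cells, endothelial cells, adventitial fibroblasts, skeletal muscle, erythroid cells, platelets, adipocytes and Schwann cells. The members and lists were chosen with earlier results of these data known. Named from the first 3 lists were the 4 genes with the smallest p on day 7 and any gene called against most of its list, and for each member the 3 genes of highest correlation of log2 CPM (prior count 2). Of the genes not called, Srf was named outside this rule, after its value was seen.

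Samples were grouped by the day in their titles. Mouse numbers shared by day 0 and day 21 gave residual correlations of -0.01 to 0.06 (3 pairs). Alternatives covered a block for these numbers, DESeq2 1.42.0, normalization, the filter, the 2 days alone and the replicate number as a block. They also covered the pseudocount, the deposited normalised signal for the ratios, and each library left out. The block for mouse numbers was applied to the edgeR fit and not to the ratios. In a simulation of day 7 against day 0 with 200 of 10312 genes changed, edgeR called 47, with 44% of 4-fold changes and 23.5% of all changes recovered, so changed genes can go uncalled. The changed genes were drawn at random, and edgeR called 2041 genes in the real comparison. These rates therefore do not give the recovery expected for the members. Library totals limit the precision through counting error, the smallest member value resting on 31 counts. Totals ran from 689455 to 869924 on day 0 and from 484259 to 676624 on day 7, so depth differed along with the day. Other effects of depth were not tested.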

Additional observations from a re-analysis of the deposited data

Results flagged for a closer look

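The Cnn2 level of day 7 replicate 1, 313 CPM, lay far below the other 3 libraries of its day (410, 427 and 417 CPM). Its gap to the nearest of them, relative to the range of the group, was 0.851, above Dixon's critical value for 4 samples. It was the only such sample among 27 groups of 4 examined, and about 1 in 20 groups is marked by chance. Without this library the log2 fold change of Cnn2 on day 7 was -0.17 in place of -0.21.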

How the results depend on the processing

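Over 25 alternatives of each count of members called, the day 28 count against day 0 stayed at 0, and the day 7 count stayed at 3 except for 2 with the mouse block. All-gene calls against day 0 were 2041 on day 7 and 138 on day 28 as described, and 1047 and 3 with the mouse block. The day 28 count against day 7, 2, was 3 without the filter, with the mouse block, and without day 21 replicate 2 or day 28 replicate 2, Cnn3 being the added member. All-gene calls there were 1490 as described and 1721 (of 18049), 1412, 1459 and 1040 in these settings. The day 14 count against day 0, 0 in the edgeR analysis as described, was 1 with RLE size factors, without a normalization factor and with the replicate block, 2 without the filter and with only the 2 days compared, and 0 to 2 when each library was left out. All-gene calls in these settings, beside 641 of 10312, were 660, 668, 514, 932 (of 18049), 461 (of 8558) and 233 to 762. The day 21 count, 1, was 0 in DESeq2, 2 with RLE size factors, without a normalization factor, without the filter, with only the 2 days compared and with the replicate block, and 0 to 2 without each library, beside 912 genes as described and 1236, 922, 928, 1178, 828, 830 and 613 to 1060 in these settings. For day 14 against day 7 the count of 1 was 2 without a normalization factor, without the filter and with the replicate block, 0 with only the 2 days compared, and 0 to 2 without each library, beside 171 genes as described and 193, 392, 192, 83 and 26 to 318 in these settings. For day 21 against day 7 the count of 2 was 1 with the mouse block, 3 without the filter (Cnn3 added) and 1 to 3 without each library, beside 749 genes as described and 223, 956 and 500 to 826. In DESeq2 the 2 members were Cnn1 and Cnn2, not Tagln. Without the filter, 1 member (Tagln) was called for day 28 against days 14 and 21, beside 382 and 373 genes. The causes of these changes were not tested. Over 33 pairs with the same replicate number the correlation of residuals was -0.13 to 0.20, median -0.01. Some of these pairs, of day 0 and day 21, also share a mouse number. With so few libraries per day, such correlations cannot decide if replicate numbers pair the libraries.

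With the replicate block the ratios of Tagln to Tagln2 (-1.66) and of Cnn1 to Cnn3 (-1.23) both had an adjusted p of 0.0782, in a test with fewer permutations. When each library was left out these ratios ranged from -1.78 to -1.41 and from -1.46 to -1.01, those of Cnn1 to Cnn2 from -2.37 to -2.02, and the day 14 ratio of Tagln to Cnn1 from -0.064 to 0.20. Signs turned, always without a call, for Tagln2 on day 7 (-0.14 with the mouse block, and -0.12 to 0.27 when each library was left out), and with the mouse block for Cnn2 on day 14 (-0.12) and Cnn3 on days 14 and 28 (0.29 and 0.43).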
